A study of Mus musculus with 8 samples.

Results

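The epidermal growth factor (EGF) family ligands, 2 of their receptors and the receptor's feedback inhibitor were followed in mouse embryonic fibroblasts with and without the transcription factors STAT5A and STAT5B. The set named 10 genes: the ligand genes Ereg, Areg, Hbegf, Btc, Tgfa, Epgn and Nrg1, the receptor genes Egfr and Erbb2, and the inhibitor gene Errfi1. They were chosen by family membership, with earlier results of these data known. Ereg was also selected on its measured growth hormone (GH) responses, which ran in opposite directions in the 2 genotypes. The platform annotation gave 20 probe sets that map to 1 of these genes alone, out of 45037 on the array. These covered 9 of the 10 genes, among 18193 genes in all. No probe set was paired with Areg in the annotation used here, so Areg was not analysed.

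The cells were passage 13 fibroblasts of the C57BL/6 strain, either wild type (called control here) or Stat5a/b-null. They were starved for 5 hours and then kept for 2 hours with 1 ug/ml GH or without it. The 4 groups, control without GH, control with GH, null without GH and null with GH, held 2 arrays each, which the titles number Bio-2 and Bio-3, a wording that reads as biological replicates. How the null allele was made, and whether the replicates came from separate embryos or from separate cultures of 1 line, is not stated in the labels, so every p-value measures the spread between these arrays. The title of the series names the restraint of proliferation by STAT5 as its subject.

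EGF family ligands are made as membrane-anchored precursors and are released by ADAM proteases. They bind EGFR or the related ERBB receptors, which pair up, phosphorylate each other and signal through RAS and ERK to early response genes. The signal is damped by transcriptional feedback, in which ERRFI1 (also known as MIG6) binds and blocks the EGFR kinase, while Sprouty and DUSP proteins act on ERK signalling. In fibroblasts this pathway is a classical route from serum and growth factors to cell division.

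All arrays behaved alike as a whole, with medians between 6.89 and 6.96 on the log2 scale and replicate correlations between 0.9968 and 0.998. Stat5b was lower in null cells without GH (log2 difference -0.69 ± 0.09, SE, adjusted p = 3.33e-05), and Stat5a was lower too, to a null level too dim to give a size. Dim here means a group mean under the first quartile of the values of all genes, 6.1 on the log2 scale. GH raised the feedback gene Cish in control cells (1.95 ± 0.11, adjusted p = 2.26e-07) and not detectably in null cells (0.06 ± 0.11, adjusted p = 0.745). All 12 fibroblast markers stood above the quartile in every group, with a summed signal between 17.5 and 17.8 on the log2 scale. Single fibroblast markers differed by genotype, with 5 of 12 higher, 1 lower and 6 not called in null cells in either GH state. Their median difference was 0.09 without GH and 0.06 with GH, against 0.03 and -0.02 over all genes. Among all genes 24.8% were called higher and 22.7% lower without GH, and 22.2% and 23.1% with GH. These shares are the background for each marker list. Without GH, Lum was 19.92-fold, Pdgfra 13.92-fold and Dcn 11.88-fold higher, and Fn1 1.96-fold lower. These differences lie in the same comparisons as those of Egfr and Errfi1, and their part in them was not tested. Of 8 epithelial markers 3 were dim in every group (Cdh1, Krt14 and Esrp1), and Krt18 was higher in null cells without GH (0.58 ± 0.11, adjusted p = 0.00104). Of 6 endothelial markers 3 were dim in every group (Pecam1, Tek and Tie1), and Emcn was lower in null cells, where it was dim. The sum of 12 macrophage markers lay between 14.97 and 15.16 on the 4 control arrays and between 11.21 and 11.52 on the 4 null arrays, and all 12 were lower in null cells in either GH state. Of these, Ptprc, Itgam and C1qb lay below the quartile in null cells without GH, and Tyrobp, C1qa and Adgre1 joined them with GH. In a bulk culture, fewer cells of a type and less RNA per cell cannot be told apart.

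Ereg encodes epiregulin, a ligand of EGFR and ERBB4 that fibroblasts and macrophages release early after stimulation. In control cells without GH its probe set read 9.75 and 9.97 on the log2 scale, and with GH 8.90 and 8.55. In null cells the order was turned, with 8.21 and 8.44 without GH and 9.84 and 9.65 with it. The control arrays without GH and the null arrays with GH overlapped in range, and both stood above the other 4 arrays. Control cells with GH and null cells without GH did not overlap, and their nearest arrays read 8.55 and 8.44. Ereg was thus 2.20-fold lower with GH in control cells (-1.14) and 2.67-fold higher in null cells (1.42), a gap of 2.56 between the responses. Null cells had 2.90-fold less Ereg than control cells without GH and 2.03-fold more with GH. These values chose the gene and are given without a test. The genotype difference averaged over both GH states, which is independent of the GH responses, was small (-0.26 ± 0.09, limma adjusted p = 0.0353, against 54.6% of all genes called). It averages opposite differences, and it missed the threshold once each array was centred on its median (adjusted p = 0.0631) and when any of 4 arrays was left out (adjusted p from 0.108 to 0.156), namely array 3 of control cells without GH, array 2 of control cells with GH, array 2 of null cells without GH and array 3 of null cells with GH.

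**Figure D1:**
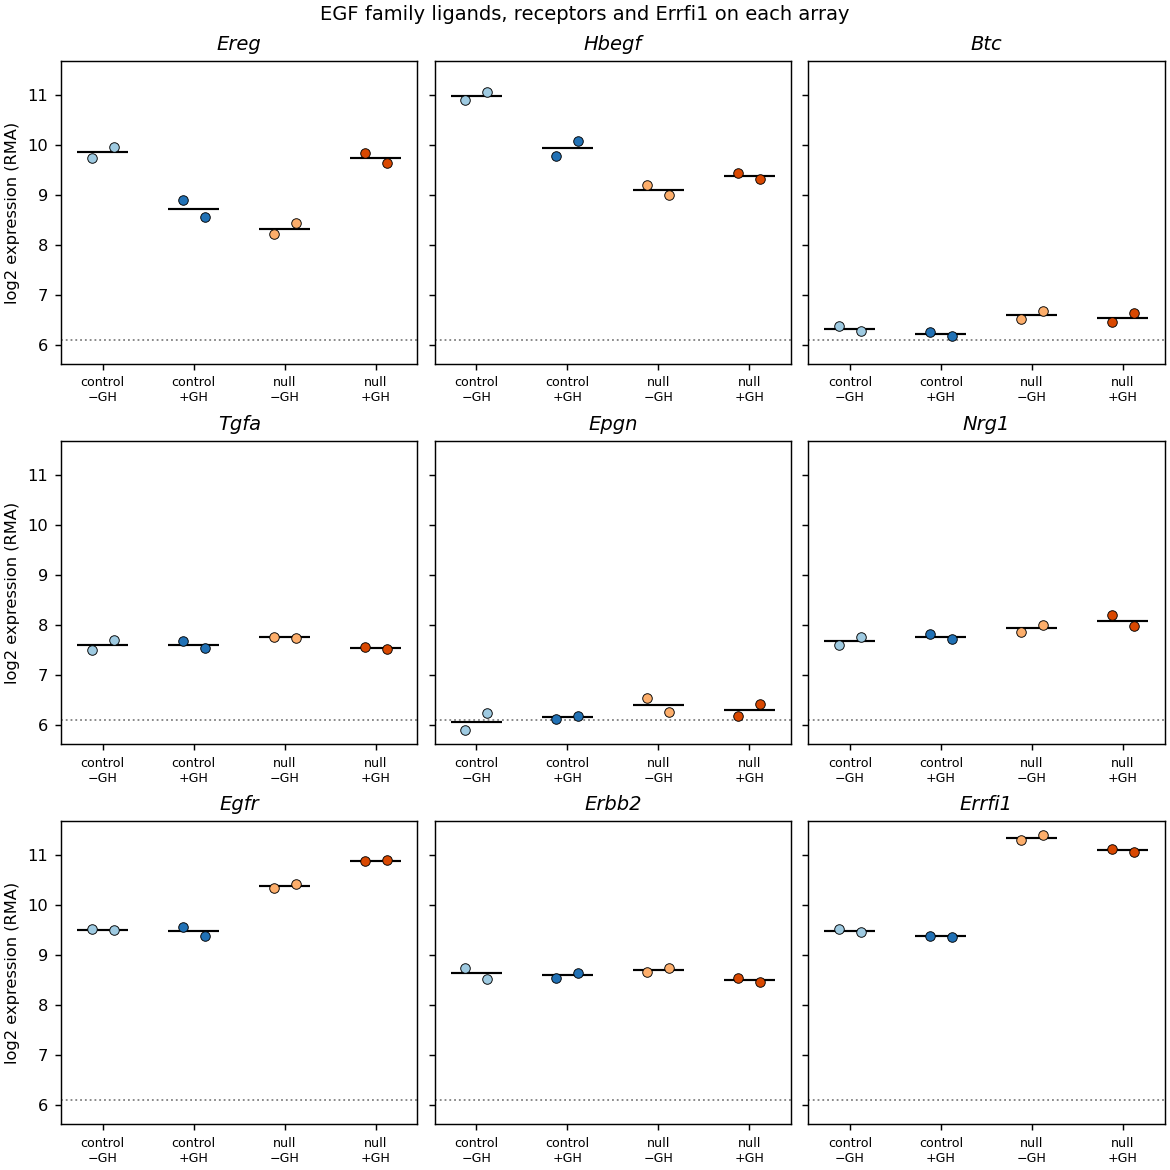
Each panel shows 1 gene, with log2 expression on the vertical axis and the 4 groups along the horizontal axis; points are single arrays, bars are group means and the dotted line is the first quartile over all genes (6.1). Ereg forms 2 high and 2 low groups crossed between the genotypes, Hbegf is highest in control cells without GH (10.90 and 11.07), and Egfr and Errfi1 separate by genotype.

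Hbegf encodes heparin-binding EGF, an EGFR ligand that binds cell-surface heparan sulphate. Its brighter probe set read 10.90 and 11.07 in control cells without GH, 9.79 and 10.09 in control cells with GH, 9.21 and 9.01 in null cells without GH and 9.44 and 9.32 in null cells with GH. Control cells without GH stood above every other array, and no groups overlapped. GH lowered Hbegf 2.06-fold in control cells (-1.05 ± 0.12, adjusted p = 0.000196), and the second probe set fell as well, from 10.29 and 10.27 to 9.41 and 9.27 (-0.94 ± 0.10, adjusted p = 0.000198 over all probe sets). In null cells the difference was 0.27 ± 0.12 (adjusted p = 0.169) for the first and 0.38 ± 0.10 for the second probe set (adjusted p = 0.0294). The 2 GH responses differed by 1.32 ± 0.17 (adjusted p = 0.000664), and by 1.32 ± 0.14 for the second probe set (adjusted p = 0.000266). When a change of at least 1.5-fold was required, neither the fall in control cells (adjusted p = 0.163) nor the difference of the responses (adjusted p = 0.0825) passed.

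Without GH, null cells had 3.67-fold less Hbegf than control cells (-1.88 ± 0.12, adjusted p = 6.29e-08). With GH the difference was 1.47-fold (-0.56 ± 0.12, adjusted p = 0.00174) for the brighter probe set and -0.15 ± 0.10 for the other (adjusted p = 0.283). Thus the genotype difference with GH was seen with only 1 of the 2 probe sets.

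The macrophage markers moved with genotype, as Hbegf did, and their part in its genotype difference was not tested. Within control cells the summed macrophage signal was 14.97 and 15.11 without GH and 15.16 and 15.08 with GH. Hbegf and Ereg were lower with GH in these cells. The sum does not stand for each marker, since Cd14 rose 3.47-fold with GH in control cells (1.79 ± 0.10, adjusted p = 3.46e-07), and it was the 1 marker of 12 called there. Null cells with GH had a macrophage sum of 11.42 and 11.52 and read 9.84 and 9.65 for Ereg. Whether macrophage content has a part in the values of Ereg or in the GH difference of Hbegf was not tested.

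**Figure D2:**
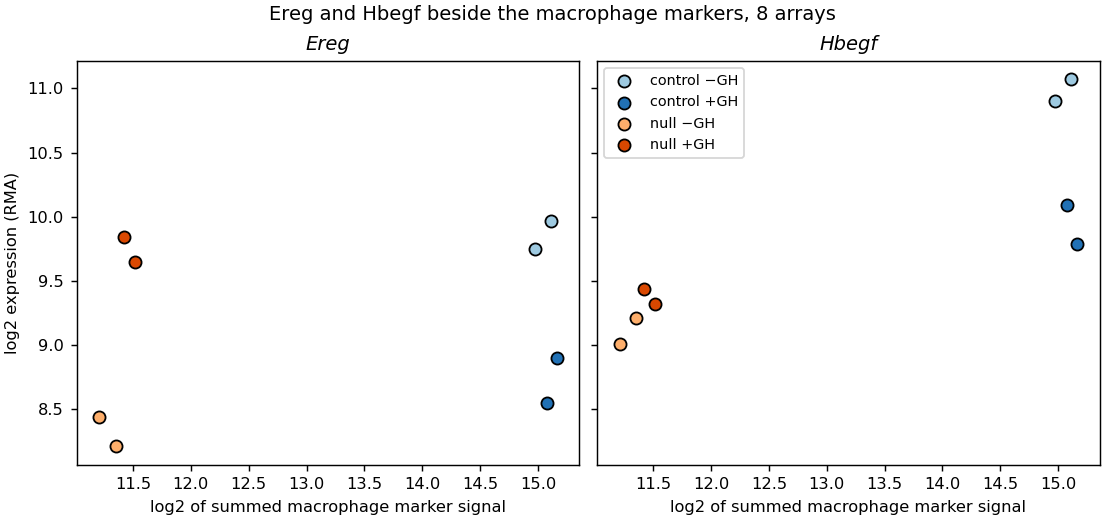
Log2 expression of Ereg (left) and Hbegf (right) on the vertical axis is set against the log2 of the summed signal of 12 macrophage markers on the horizontal axis, with 1 point per array coloured by group. The markers split the arrays by genotype (11.21 to 11.52 against 14.97 to 15.16), Ereg takes high and low values on both sides, and Hbegf is lower with GH among the control arrays. The part of the markers in either gene was not tested.

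The remaining ligands changed little. Btc encodes betacellulin, a ligand of EGFR and ERBB4. It read 6.37 and 6.27 in control cells without GH, 6.25 and 6.18 with GH, 6.52 and 6.67 in null cells without GH and 6.45 and 6.63 with GH, all just above the quartile. Each null array was above each control array, and the difference was 0.27 ± 0.10 without GH (adjusted p = 0.0383) and 0.33 ± 0.10 with GH (adjusted p = 0.0158). Without GH the call was lost in 8 of 17 alternative settings, among them the replicate number as a block (adjusted p = 0.0531). With GH it was lost without array 3 of control cells with GH (adjusted p = 0.101) or array 3 of null cells with GH (adjusted p = 0.139). The second probe set of Btc lay below the quartile in every group.

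Nrg1 encodes neuregulin 1, which signals through ERBB3 and ERBB4 with ERBB2 as partner. Its single probe set read 7.60 and 7.76 in control cells without GH, 7.81 and 7.72 with GH, 7.86 and 8.0 in null cells without GH and 8.20 and 7.97 with GH. The genotype difference with GH was 0.32 ± 0.10 (adjusted p = 0.0259) and without GH 0.25 ± 0.10 (adjusted p = 0.0685). The first of these was lost without either array of control cells with GH or array 2 of null cells with GH (adjusted p from 0.0525 to 0.225). Without GH it passed when the arrays were centred on their medians (adjusted p = 0.0439) or genes below the quartile were left out (adjusted p = 0.0497).

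Tgfa encodes transforming growth factor alpha, an EGFR ligand named for its effect on cultured cells. Its brightest probe set stayed between 7.50 and 7.76 on all 8 arrays, and none of its 3 probe sets was called in any comparison. The interval of its GH response was -0.20 to 0.22 in control cells and -0.43 to -0.01 in null cells (95%, unadjusted), the latter with an adjusted p of 0.169. Epgn, which encodes the EGFR ligand epigen, lay between 5.89 and 6.54. Its mean was below the quartile in control cells without GH, so the size of its difference there is not given. In the main fit Epgn passed the test of the averaged genotype difference alone (adjusted p = 0.0434, higher in null cells). That call was lost in 7 of 16 alternative settings. The genotype difference of Epgn without GH missed the threshold (limma adjusted p = 0.0537). It passed in 5 of 17 alternative settings, among them arrays centred on their medians (limma adjusted p = 0.0361).

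Egfr encodes the receptor that binds all of these ligands except neuregulin. The probe set that stands for the gene read 9.52 and 9.50 in control cells without GH and 9.57 and 9.38 with GH. In null cells it read 10.35 and 10.43 without GH and 10.88 and 10.91 with GH. Every null array was above every control array, and null arrays with GH were above those without. Null cells had 1.84-fold more Egfr without GH (0.88 ± 0.09, adjusted p = 5.41e-06) and 2.67-fold more with GH (1.42 ± 0.09, adjusted p = 8.16e-08). GH raised Egfr in null cells (0.50 ± 0.09, adjusted p = 0.00411), and the value in control cells was -0.03 ± 0.09 (adjusted p = 0.973). The 2 responses differed by 0.54 ± 0.13 (adjusted p = 0.0338), but that call was lost in 11 of 16 alternative settings. These included leaving out any of 7 of the 8 arrays, all but array 2 of control cells with GH (adjusted p from 0.0611 to 0.170), and the replicate number as a block (adjusted p = 0.0589).

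The 7 probe sets of Egfr split into 2 sorts. In null cells 4 of them were higher in either GH state, by 0.61 to 1.08 without GH and by 0.68 to 1.42 with GH. The other 3, 1432647_at, 1454313_at and 1457563_at, were not higher, and 1454313_at was lower without GH (-0.28 ± 0.10, adjusted p = 0.0446). Of these, 1457563_at lay below the quartile in every group. In all, 5 of 7 were called without GH and 4 of 7 with GH, against 38.6% and 37.3% of all probe sets. Averaging the 7 probe sets reduced the genotype difference without GH from 0.88 to 0.45. The rise with GH in null cells passed for 1435888_at alone, and for the other 3 that differed by genotype it was 0.28 (adjusted p = 0.234), 0.29 (adjusted p = 0.306) and 0.11 (adjusted p = 0.50).

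**Figure D3:**
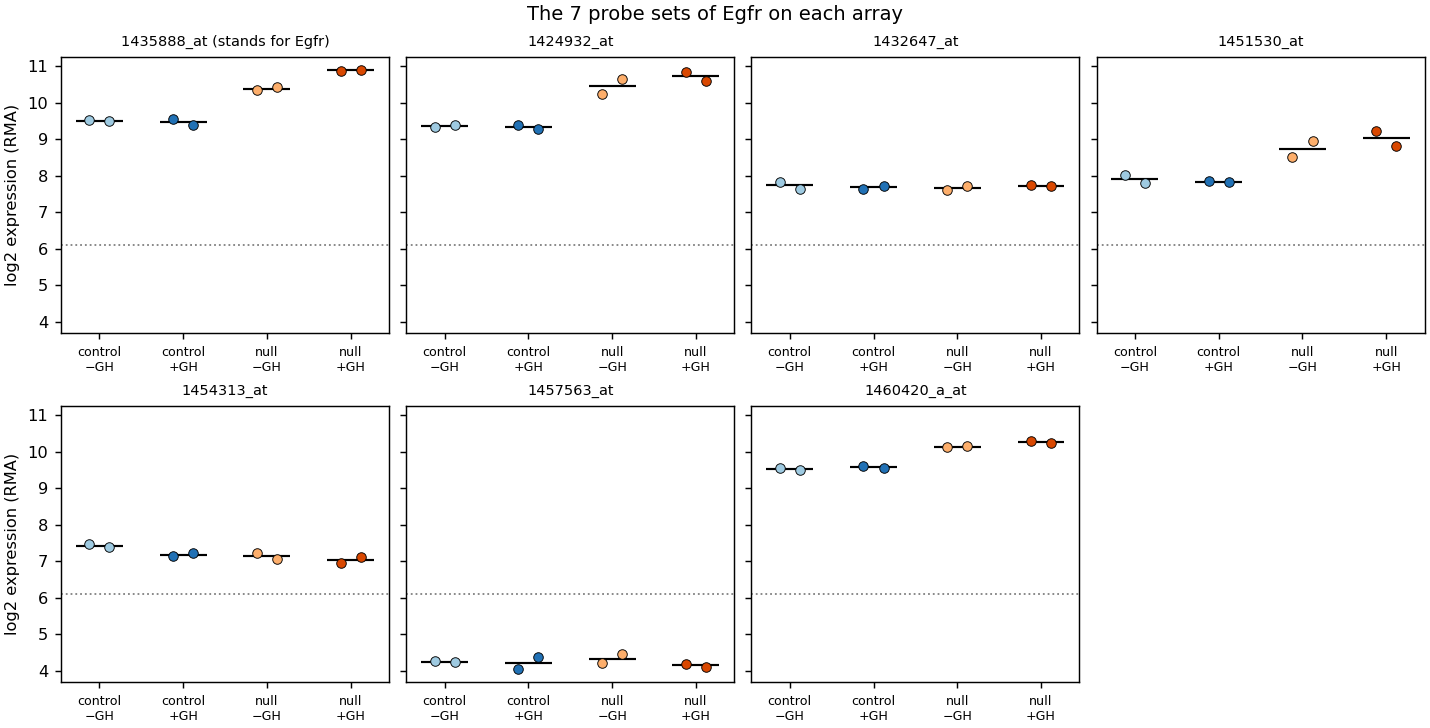
Each panel shows 1 of the 7 probe sets that map to Egfr, with log2 expression on the vertical axis and the 4 groups along the horizontal axis; points are single arrays, bars are group means and the dotted line is the first quartile over all genes. In 4 panels the null arrays lie above the control arrays, and in 1432647_at, 1454313_at and 1457563_at they do not.

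Erbb2 encodes the receptor that has no known ligand of its own and serves as a partner for the others. Its probe set stayed between 8.46 and 8.75 on all arrays and was not called in any comparison. The 95% interval of the genotype difference was -0.14 to 0.29 without GH and -0.31 to 0.12 with GH, so differences of up to about these sizes remain possible.

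Errfi1 gave the largest fold among the members called higher in null cells. It read 9.52 and 9.46 in control cells without GH and 9.39 and 9.37 with GH, against 11.30 and 11.41 in null cells without GH and 11.13 and 11.07 with GH. The genotypes lay far apart, and the arrays with GH were slightly below those without in both. Null cells had 3.64-fold more Errfi1 without GH (1.86 ± 0.09, adjusted p = 4.22e-09) and 3.31-fold more with GH (1.73 ± 0.09, adjusted p = 8.26e-09). The second probe set gave 1.78 ± 0.10 and 1.64 ± 0.10. GH differences of -0.11 ± 0.09 in control cells (adjusted p = 0.80) and -0.25 ± 0.09 in null cells (adjusted p = 0.0858) did not pass.

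Since Egfr and Errfi1 were both higher in null cells, the bases before their annotated start sites are shown, from RefSeq on GRCm38.p6. RefSeq promoter windows were found for 7 of the 10 genes, with 2 start sites for Errfi1. The 250 bases before each start were searched on both strands for TTCNNNGAA (the STAT motif), TGANTCA (AP-1) and TGACGTCA (the cAMP response element), which do not overlap in the matches found. These motifs occur in 7.02%, 6.75% and 1.55% of all 32851 windows. Capitals mark the match, and a match is a description of the letters only. The windows lie at chr4:150853546-150853795 and chr4:150854820-150855069 for Errfi1 and chr11:16751953-16752202 for Egfr, all on the plus strand and 5′ to 3′.
Errfi1 start site 1: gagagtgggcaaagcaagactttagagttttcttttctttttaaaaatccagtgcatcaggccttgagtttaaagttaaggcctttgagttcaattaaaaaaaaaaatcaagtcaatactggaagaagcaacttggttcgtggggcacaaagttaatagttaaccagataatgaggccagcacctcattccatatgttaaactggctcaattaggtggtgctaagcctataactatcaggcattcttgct
Errfi1 start site 2: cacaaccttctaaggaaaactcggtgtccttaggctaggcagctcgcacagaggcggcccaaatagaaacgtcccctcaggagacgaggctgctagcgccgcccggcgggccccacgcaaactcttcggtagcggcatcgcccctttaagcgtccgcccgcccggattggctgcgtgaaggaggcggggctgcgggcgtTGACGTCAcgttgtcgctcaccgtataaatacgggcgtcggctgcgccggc
Egfr start site: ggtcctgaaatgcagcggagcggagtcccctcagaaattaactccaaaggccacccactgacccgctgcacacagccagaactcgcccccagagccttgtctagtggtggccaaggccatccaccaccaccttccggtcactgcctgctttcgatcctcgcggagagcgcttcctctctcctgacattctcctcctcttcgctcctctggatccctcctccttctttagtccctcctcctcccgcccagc
The second Errfi1 window holds TGACGTCA with its first base 51 bases before the start and is rich in G and C (64.8%). The first Errfi1 window (38.0% G and C) and the Egfr window (60.8%) hold none of the 3 motifs, nor do those of Btc, Tgfa, Epgn and Erbb2. The window of Areg holds TGACGTCA with its first base 61 bases before the start. These windows are short, and a missing match says only that the letters are not in them.

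Counted without Ereg, 4 of the 8 other measured members were called between the genotypes without GH, against 47.5% of all genes. Btc, Egfr and Errfi1 were higher in null cells and Hbegf was lower (24.8% and 22.7% of all genes were called in these directions). With GH 5 of 8 were called, against 45.3%. Nrg1 joined the higher members and Hbegf was again the lower one (22.2% higher and 23.1% lower among all genes). Both shares lie near the background. The median member difference was 0.26 without GH and 0.24 with GH, beside 0.03 and -0.02 over all genes.

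GH called 1 of the 8 in control cells, Hbegf, against 2.62% of all genes (1.72% higher and 0.896% lower). In null cells it called 1 of 8, Egfr, against 11.7% (5.36% higher and 6.35% lower). The GH responses differed between genotypes for 2 of 8, Hbegf and Egfr, against 5.16% (2.83% higher and 2.33% lower in null cells). The choice of Ereg rested on these contrasts, so nothing is read from the counts. The GH comparison and the genotype comparison share arrays, and their values are set side by side in the plot of differences.

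**Figure D4:**
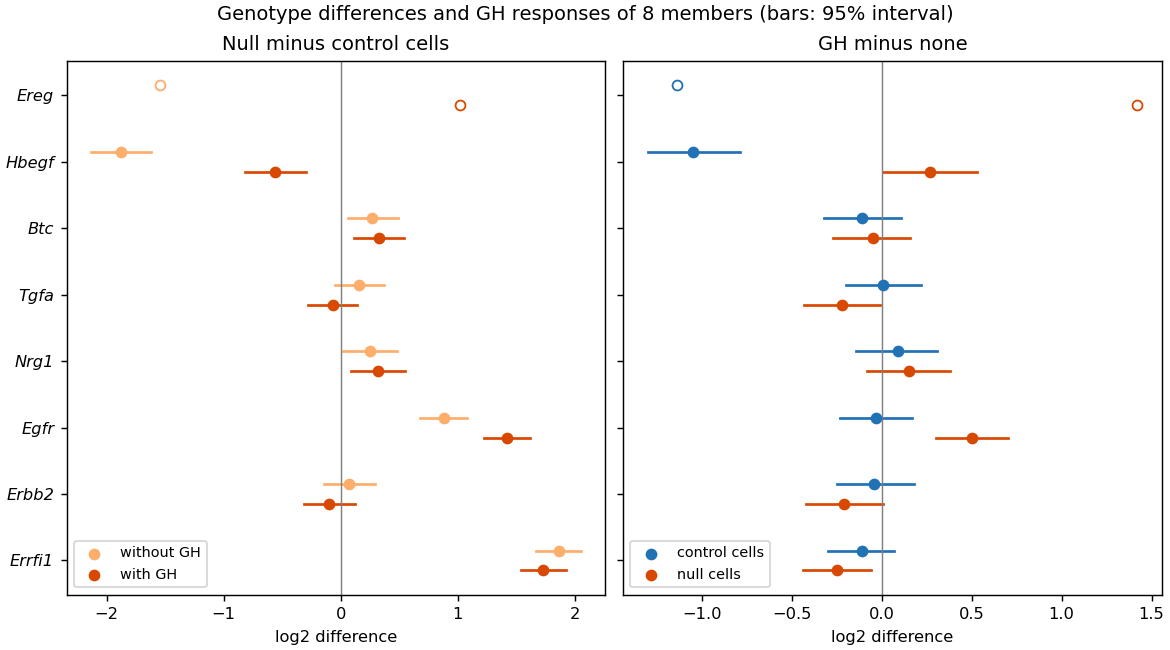
Log2 differences of 8 members are shown on the horizontal axis, null minus control cells on the left and GH minus none on the right; filled points carry limma's unadjusted 95% interval, and the open points of Ereg have none because its responses chose it. Epgn is left out because its mean was dim in control cells without GH. Errfi1 (1.86 and 1.73) and Egfr (0.88 and 1.42) lie to the right of 0 on the left panel, and Hbegf (-1.05) is to the left of 0 in control cells on the right panel.

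The rest of the pathway was described by 6 gene lists. They were chosen with earlier results of these data known. Their counts beside the shares of all genes are therefore descriptions and not tests of the lists. The sheddases and trafficking genes that release the ligands were mostly lower in null cells, with 7 of 11 lower and 1 higher without GH (median -0.71) and 8 lower and 2 higher with GH (median -0.61). Among all genes 22.7% were called lower and 24.8% higher without GH, and 23.1% and 22.2% with GH, and these shares are the background for each list between the genotypes. Adam8, a protease also made by leukocytes, was 3.93-fold lower without GH (-1.98 ± 0.09, adjusted p = 3.74e-09), and Adam12 was 1.91-fold lower (-0.93 ± 0.10). Rhbdf2, which carries ADAM17 to the surface and is prominent in macrophages, was 2.93-fold lower with GH (-1.55 ± 0.10, adjusted p = 8.70e-08). The macrophage markers fell in these same comparisons, and their part in these values was not tested. Adam17 itself, the main sheddase of Hbegf, Ereg, Areg and Tgfa, was higher in null cells without GH (0.39 ± 0.09, adjusted p = 0.00297) and with GH (0.55 ± 0.09, adjusted p = 0.000225). GH raised Rhbdf2 in control cells (0.75 ± 0.10, adjusted p = 0.000884) and its relative Rhbdf1 in null cells (0.76 ± 0.09, adjusted p = 0.000202).

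Among adaptor and endocytosis genes 7 of 18 were higher and 5 lower in null cells in either GH state, and calls in both directions were also usual among all genes (24.8% higher and 22.7% lower without GH). Shc1, an adaptor that links the receptor to GRB2, was 2.45-fold higher in null cells without GH (1.29 ± 0.10, adjusted p = 2.87e-07). Gab2, a docking protein, was 1.89-fold lower without GH (-0.92 ± 0.10) and 2.94-fold lower with GH (-1.56 ± 0.10, adjusted p = 1.10e-07). Of the core genes from RAS to ERK, 8 of 14 had a probe set of their own, and 3 were higher and 3 lower in either GH state, beside the same shares of all genes. The scaffold gene Ksr1 was higher without GH (1.29 ± 0.11) and the RAS relative Rras2 lower (-1.33 ± 0.09). For the GH response limma called none of the 8 in either genotype (0 also at an unadjusted p below 0.05). Among all genes 2.62% were called for GH in control cells and 11.7% in null cells, so a count of 0 among so few genes says little. The 6 other EGF family ligands and receptors held 2 higher genes without GH, Egf and Nrg3, both below the quartile in every group. Erbb3 was lower with GH (-0.32 ± 0.09, adjusted p = 0.0125).

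Among 19 feedback inhibitors of EGFR and ERK signalling, 7 were lower with GH in control cells and none was higher (median -0.16, against -0.02 for all genes), where 0.896% of all genes were called lower and 1.72% higher. In null cells 6 were higher and 2 lower (median 0.14, against -0.07), where 5.36% of all genes were called higher and 6.35% lower. These were mostly not the same genes called in opposite directions, since Dusp4 alone was called lower in control and higher in null cells. Dusp1, a phosphatase of ERK, JNK and p38 kinases, fell in both, by 0.58 ± 0.09 in control cells (adjusted p = 0.00301) and by 1.03 ± 0.09 in null cells (adjusted p = 1.46e-05). Spry1, Spry2 and Dusp6, which restrain RAS or ERK, fell in control cells by 0.98 ± 0.11, 1.02 ± 0.14 and 0.77 ± 0.10 (adjusted p = 0.000122, 0.00114 and 0.000895). Their values in null cells were -0.11, 0.14 and 0.03, none called. Dusp4, an ERK phosphatase of the nucleus, fell with GH in control cells from a mean of 10.70 to 9.87 (-0.83 ± 0.12, adjusted p = 0.00187) and rose in null cells from 8.67 to 9.42 (0.75 ± 0.12, adjusted p = 0.00212). The difference of the GH responses was called for 6 of the 19 genes, all higher in null cells, with a median of 0.42 against -0.05 for all genes, of which 2.83% were called higher.

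Of 22 early response genes of EGF signalling, 6 were higher and 3 lower with GH in control cells (median 0.03, against -0.02 for all genes) and 13 higher and 3 lower in null cells (median 0.45, against -0.07). Calls were also more frequent over all genes in null cells (11.7%) than in control cells (2.62%), so the counts of the genotypes are not set against each other. The difference of the responses itself was called for 13 genes, 12 higher and 1 lower in null cells (median 0.55, against -0.05), beside 2.83% and 2.33% of all genes. Fosl1, an AP-1 subunit, rose in null cells (1.47 ± 0.10, adjusted p = 1.58e-06) with a control value of -0.18 ± 0.10 (adjusted p = 0.625). Maff rose in null cells by 1.46 ± 0.10 and Ptgs2, the inducible cyclooxygenase gene, by 1.36 ± 0.12, with control values of 0.14 and -0.28 that were not called. Lif and Ier3 rose in both genotypes, Lif by 1.22 ± 0.10 in control and 2.22 ± 0.10 in null cells and Ier3 by 1.43 ± 0.09 and 1.96 ± 0.09. Egr1 was 6.36-fold higher in null cells without GH (2.67 ± 0.10) and fell with GH in both genotypes (-0.61 ± 0.10 and -0.87 ± 0.10).

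**Figure D5:**
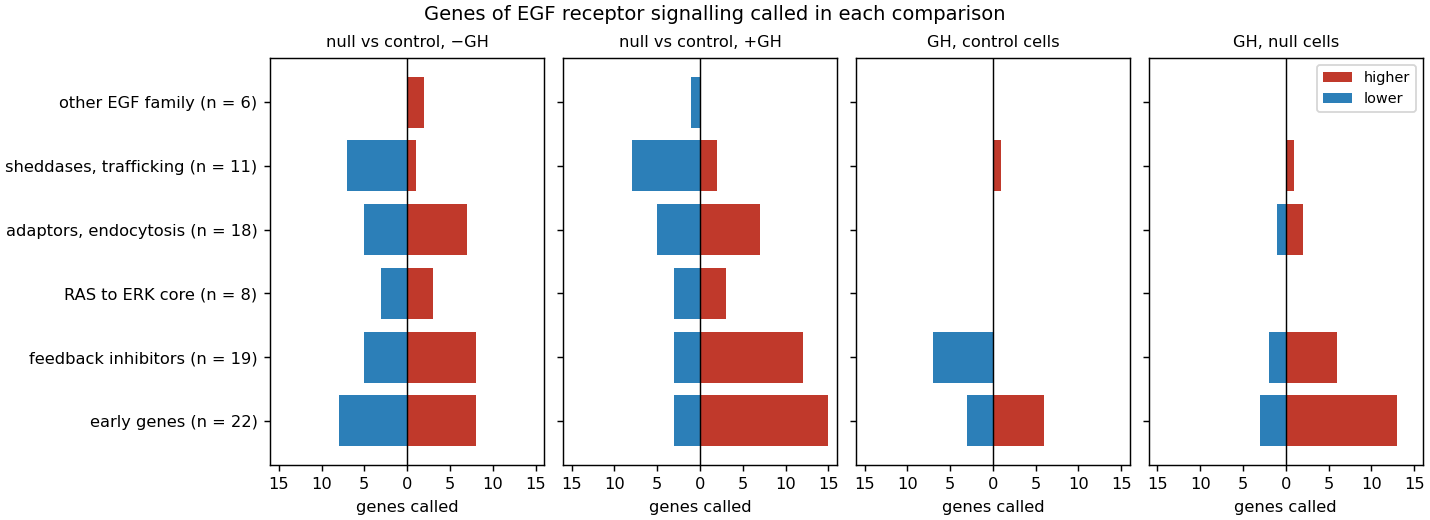
Bars give the number of genes called higher (right) and lower (left) at an adjusted p below 0.05 for 6 lists of EGF receptor signalling genes, with the number measured beside each list, in 4 comparisons. Feedback inhibitors show 7 lower and none higher with GH in control cells and 6 higher and 2 lower in null cells, and early genes show 13 higher and 3 lower with GH in null cells. The lists were chosen with earlier results of these data known, so the counts are descriptions.

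Ereg lies between Epgn and Areg in the gene order of mouse chromosome 5, with Btc next after Areg, on GRCm38.p6. The next protein-coding genes are Mthfd2l and Cxcl2 on the side of Epgn and Parm1 and Rchy1 on the side of Btc. The chemokine gene Cxcl2 rose with GH in both genotypes, to means of 12.74 and 11.37 from levels below the quartile. Mthfd2l had GH differences of 0.02 and 0.10, and Rchy1 of -0.02 and 0.19, none called. Parm1 was far lower in null cells (-4.73 ± 0.11 without GH, adjusted p = 1.17e-11) and was not called for GH. None of the 6 measured genes around Ereg was called lower with GH in control cells. Among all genes 0.896% were called so, and nothing is read from this count. These neighbours were chosen after the values were seen.

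The genes whose values ran most like those of each member over the 8 arrays were drawn from genes with group means spanning at least 1 log2 unit. For Ereg they were Noct (Pearson r = 0.886), Arid5a (0.879), Has2 (0.879), Ptgs2 (0.871) and Irgm1 (0.844). Noct had means of 10.17 and 9.20 in control cells without and with GH and 9.25 and 10.80 in null cells. Like Ereg it was lower with GH in control cells and higher with GH in null cells. The highest and the lowest group were not the same as for Ereg. Likeness was closer for Hbegf, led by Ccr1 (0.987) and Zfp697 (0.977). For Errfi1 it was led by Fdps (0.999) and Lpl (0.998), and for Egfr, added after the values were seen, by Oasl2 (0.995) and Ptpn2 (0.994). Ccr1 was dim in every group except control cells without GH, and Oasl2 in every group except null cells with GH. Among the members, Egfr and Errfi1 ran together (r = 0.919), and Ereg and Hbegf less so (r = 0.556). All of these values describe 8 arrays in 4 groups that share a genotype split, and carry no test.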

How the data were processed

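RNA of 8 samples was measured on Affymetrix mouse arrays. The deposited log2 values were made by the authors with robust multi-array averaging (RMA) in Partek 6.10.0511, as listed in the submitters' processing notes. The sources used here give neither settings nor a genome build, and the values carry no detection call. After 64 control probe sets were left out, 34945 of 45037 probe sets had 1 gene in the platform annotation, 932 several and 9160 none. Symbols were updated through Entrez identifiers for 34741. The probe set with the highest mean stood for a gene, which gave 18193 genes.

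All 8 arrays were fitted with limma 3.58.1 (R 4.3.3), 1 mean per group, with adjustment by Benjamini-Hochberg over all genes or all probe sets and calls at an adjusted p below 0.05. Errors after ± are limma's standard errors, with 4 residual and 7.82 prior degrees of freedom. The number of arrays limits the precision. Simulated data had random normal noise of the fitted spread, with 200 of 18193 genes changed in a single group. Log2 changes of 0.5 were recovered there in 86% (genotype without GH), 82% (GH in control cells), 88% (GH in null cells) and 34% (difference of the responses) of cases. More genes were called in the data, 8640 between genotypes without GH and 476 for GH in control cells. The adjusted p depends on that number, so these rates are not the recovery in the data.

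The members and gene lists were chosen with earlier results of these data known. Up to 3 genes per list, direction and comparison with the lowest p were eligible to be named. Levels with a group mean below the first quartile gave no size. Groups and replicate numbers came from the titles, and 1 null array without GH carries the number 3 in its source label and 2 in its title. Alternatives were other probe set rules, a filter on dim genes, 2 scalings, an intensity trend, fits of the compared groups alone, a 1.5-fold minimum, the replicate number as a block and leaving out each array.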

Additional observations from a re-analysis of the deposited data

Results flagged for a closer look

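The GH response differed between null and control cells for Hbegf by 1.32 and for Egfr by 0.54 on the log2 scale (limma, tested). The call for Egfr was lost in 11 of 16 alternative settings, and among its probe sets 1435888_at alone was called. For Ereg both arrays with GH read below both without it in control cells and above both without it in null cells. The gap of 2.56 between the responses was not tested because it chose the gene. The difference of the GH responses was called for further pathway genes, and up to 3 per list and direction with the lowest p are given. It was higher in null cells for Fosl1 (1.65), Ptgs2 (1.64), Dusp4 (1.58), Maff (1.32), Spry1 (0.87), Ptpn1 (0.80) and Rhbdf1 (0.70). It was lower for Egr2 (-0.85), Rhbdf2 (-0.78) and Gab2 (-0.64). In full it was called higher for 12 early genes, 6 feedback inhibitors and 1 sheddase or trafficking gene. It was called lower for 1 gene each of the early, sheddase and adaptor lists. Among all genes 2.83% were called higher and 2.33% lower. With 2 arrays a group, no array could be checked for standing apart from its group.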

How the results depend on the processing

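No member's called difference changed direction under any of the alternatives, and Errfi1 kept its genotype calls in each. With a minimum change of 1.5-fold, limma called 2605 and 2423 genes between genotypes without and with GH, 2863 for their average, 109 and 145 for GH in control and null cells and 90 for the difference of the GH responses. Under it the members called, Ereg aside, were 2 between genotypes with GH, 3 for the average, and 0 for the GH response of either genotype and its difference, where 1, 1 and 2 were called with no minimum (at an unadjusted p below 0.05, 1, 0 and 1 members). With the probe set of highest variance no member was called for GH in null cells (0, and 2 at an unadjusted p below 0.05) and 1 for the difference of the responses, as with the mean of a gene's probe sets (1). Fitting only the groups compared called 316 genes for GH in control cells. Leaving out single arrays gave 295 to 460 genes for GH in control cells, 818 to 2409 for GH in null cells and 437 to 872 for the difference of the responses. For members this gave 1 to 2 for the difference and 3 to 5 between genotypes with GH. No clear pairing by replicate number was seen in the values, where the correlation of replicate differences between groups ran from -0.279 to 0.129. Whether arrays of the same number were prepared together is not stated in the labels, and these correlations cannot settle it. With the replicate number as a block, 1 member was called for the difference of the responses, since Egfr was lost, and Btc was lost between genotypes without GH. No other member call changed under the replicate block.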
